A study of Mus musculus with 24 samples.

Results

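The complement system was examined as 38 genes, which were chosen by symbol from the gene table of the series and divided by their place in the cascade into the classical pathway (11 genes), the lectin pathway (6), the alternative pathway (4), the terminal pathway (7), the regulators (8) and the receptors (2). All 38 were found among the 54532 genes of the table, and 37 had enough counts to be tested in each comparison. Cfd, the factor D protease that is made chiefly by fat tissue, had too few counts. The study asked what the small GTPase Rab30 does in the fasted mouse liver, and it sequenced RNA of whole livers from 24 male mice after a 24 h fast, with 4 livers per group and 6 groups.

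Whole-body knockouts, in which exon 4 of Rab30 is deleted in every tissue (Rab30KO), were set against wild-type littermates (Rab30 Ctrl). Mice with both floxed genes and no Cre (ff;ff, here the floxed controls) were littermates of the double knockouts. The other 3 groups carried Cre under the albumin promoter, which the study used to delete the floxed genes specifically in hepatocytes. Rab30L-/- lost Rab30, Cpt2L-/- lost Cpt2, and DKO lost both. Cpt2 encodes carnitine palmitoyltransferase 2, which hepatocytes need to burn long-chain fatty acids in mitochondria. No other pair of the floxed groups is labelled as littermates, so litter or colony and genotype cannot be told apart in Cpt2L-/- or Rab30L-/- against floxed controls, in DKO against Rab30L-/- or in DKO against Cpt2L-/-. All 6 groups had been fasted, and no fed liver was analysed here.

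Complement is a set of plasma proteins, most of them secreted by hepatocytes, that mark microbes and dying cells for removal. The classical pathway starts with C1q bound to antibody, the lectin pathway with mannose-binding lectins, collectins and ficolins bound to sugars, and the alternative pathway with slow turnover of C3 itself. All routes meet at C3, whose cleavage leads to cleavage of C5 and to the membrane attack complex of C5b, C6, C7, C8 and C9, while soluble and membrane-bound regulators keep the cascade off host cells. For C1q and properdin, macrophages and other myeloid cells are the main sources.

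The sequences shown first are the 250 bases upstream of the start sites of Mbl2, C4bp and C9 in the RefSeq promoter set (GRCm38.p6). In that set 29 of the 38 members were matched. Of members with an entry that were called lower in both comparisons of Cpt2 loss, these 3 fell most in Cpt2L-/- against floxed controls. The C9 stretch ends at 6445345, past the listed gene start at 6445327. The C4bp stretch, on the minus strand, begins at 130661619, short of the listed gene end at 130661632. The 3 stretches were searched on both strands for the letters of 4 motifs: C/EBP (TTGCNNAA, no mismatch), HNF4 (CAAAGTCCA, up to 1 mismatch), the HNF1 consensus palindrome and the PPAR direct repeat, the last pair with up to 2 mismatches each. Capitals mark the matches.
Mbl2, chr19:30232678-30232927, plus strand: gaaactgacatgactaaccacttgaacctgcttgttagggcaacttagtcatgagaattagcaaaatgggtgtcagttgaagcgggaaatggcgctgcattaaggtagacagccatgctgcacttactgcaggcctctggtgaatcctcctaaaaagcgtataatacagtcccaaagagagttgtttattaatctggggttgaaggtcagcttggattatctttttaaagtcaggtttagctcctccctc
C4bp, chr1:130661619-130661868, minus strand: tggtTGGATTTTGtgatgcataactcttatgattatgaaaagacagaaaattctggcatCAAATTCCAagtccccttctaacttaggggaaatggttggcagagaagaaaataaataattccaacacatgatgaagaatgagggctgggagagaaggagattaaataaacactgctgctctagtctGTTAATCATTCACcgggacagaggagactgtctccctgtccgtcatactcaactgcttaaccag
C9, chr15:6445096-6445345, plus strand: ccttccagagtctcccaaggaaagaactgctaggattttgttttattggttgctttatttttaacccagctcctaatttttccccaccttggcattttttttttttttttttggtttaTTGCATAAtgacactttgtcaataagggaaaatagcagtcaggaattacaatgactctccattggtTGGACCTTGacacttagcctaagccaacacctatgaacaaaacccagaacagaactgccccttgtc
In C4bp the capitals are 2 HNF4 matches and, nearest the start site, 1 HNF1 match, which reads as a match on either strand. In C9 they are a C/EBP match followed by an HNF4 match. The stretch upstream of Mbl2 held none of these letters. Among the 29 members, 5 held a C/EBP match (C1rb, C1rl, C1s1, C3 and C9) against 10.84% of all genes in the promoter set, 5 an HNF4 match (C1s1, C4bp, C8g, C9 and Cfhr2) against 8.044%, 2 an HNF1 match (C4bp and Hc) against 1.451%, and 2 a PPAR match (C7 and Cfhr2) against 3.719%. A match describes letters in this window and says nothing of binding.

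Levels are given per length as FPKM, the authors' fragment counts scaled to gene length and a normalised library size, where genes are compared with each other, and as CPM, counts scaled to library size alone with edgeR's TMM factors, where livers are compared. In the floxed controls C3, the central component, was the most abundant member at 1327 ± 314 FPKM (SD, n = 4). It was followed by vitronectin (Vtn) at 952 ± 137 FPKM, clusterin (Clu) at 494 ± 47.7 FPKM and the C1 inhibitor (Serping1) at 404 ± 42.4 FPKM, which keep the terminal complex or the C1 proteases in check. The ranges of C3 and Vtn overlap over the 4 livers, as do those of Clu and Serping1, while each value of Vtn lies above each of Clu. At the other end, C7, Cfb, Cfd and the receptors C3ar1 and C5ar1 lay below 1 FPKM on average in the floxed controls. Counts on the 38 genes made up 1.64% ± 0.291 (SD, n = 4) of all counts in the floxed controls and 2.26% ± 0.601 in Rab30L-/-. The share was 1.07% ± 0.0744 in Cpt2L-/- and 0.995% ± 0.0754 in DKO, and the highest liver of these groups, at 1.17%, was below the lowest floxed control, at 1.38%. Rab30 Ctrl and Rab30KO had 1.64% and 1.81%. In whole liver, fewer cells of a type and less RNA per cell cannot be told apart.

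Library totals ran from 11801027 to 24497738 counts. Livers of a group differed from each other by more than counting noise in every pair. Reads were counted over whole genes, so the excision of an exon was not checked by them: Cpt2 stood at 95.2 to 167 CPM in Cpt2L-/- and 128 to 139 CPM in the floxed controls, and Rab30 at 101 to 231 CPM in DKO and 122 to 188 CPM in Cpt2L-/-. Some other pairs differed more, with Cpt2 at 96.0 to 119.9 CPM in DKO and 169.5 to 267 CPM in Rab30L-/-. Rab30 had a median of 15.7 CPM in Rab30L-/- and 37.9 CPM in the floxed controls. The whole-body knockouts did not have a lower Rab30 median than their wild-type littermates, at 11.0 CPM against 9.89 CPM. Their livers ran from 5.38 to 17.4 CPM, and those of the littermates from 6.63 to 30.1 CPM. The groups are therefore those of the labels. Of 8 hepatocyte markers, 7 were found, none of them at 0 in any liver. Their summed level was 96681 to 125657 CPM in the floxed controls, 83669.8 to 96979 in Rab30L-/-, 47927 to 57729 in Cpt2L-/- and 62495 to 76519 in DKO. The sum was thus lower in Cpt2L-/- than in floxed controls and lower in DKO than in Rab30L-/-, as the complement genes were, whereas Rab30L-/- had a lower median marker sum and a higher mean complement share than the floxed controls. The log2 fold change of albumin was -1.41 ± 0.19 (adjusted p = 0.00016) in Cpt2L-/- against floxed controls, -0.37 ± 0.18 (adjusted p = 0.133) in DKO against Rab30L-/- and -0.49 ± 0.20 (adjusted p = 0.362) in Rab30L-/- against floxed controls. In each comparison of Cpt2 loss 4 of the 7 were lower past the thresholds (adjusted p under 0.05 and at least 1.2-fold). Their part in the results below was not tested.

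Complement transcripts were broadly lower in livers whose hepatocytes had lost Cpt2, with Rab30 intact and with Rab30 lost as well. In Cpt2L-/- against floxed controls, 21 of the 37 tested members were lower past the thresholds and 0 were higher. Over all genes tested, 11.9% were lower. The members had a median log2 fold change of -0.76, against -0.0035 over all genes and -0.86 over the 7 hepatocyte markers. In DKO against Rab30L-/-, 29 of 37 were lower, where 15.8% of all genes were, and 1 was higher, where 14.9% were. The median was -1.17, against -0.012 over all genes and -0.60 over the 7 hepatocyte markers. These comparisons have no liver in common. Lower in both were 18 members, which is 85.7% of the first list and 62.1% of the second, while 6.71% of the 12970 genes tested in both were lower in both. The 18 were C1ra, C1rl, C1s1, C2, C4a, Mbl2, C3, Hc, C8a, C8b, C8g, C9, Serping1, C4bp, Cfi, Cfhr2, Vtn and Clu. They come from each group but the receptors, and 11 of them belong to the terminal pathway or are soluble regulators.

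**Figure D1:**
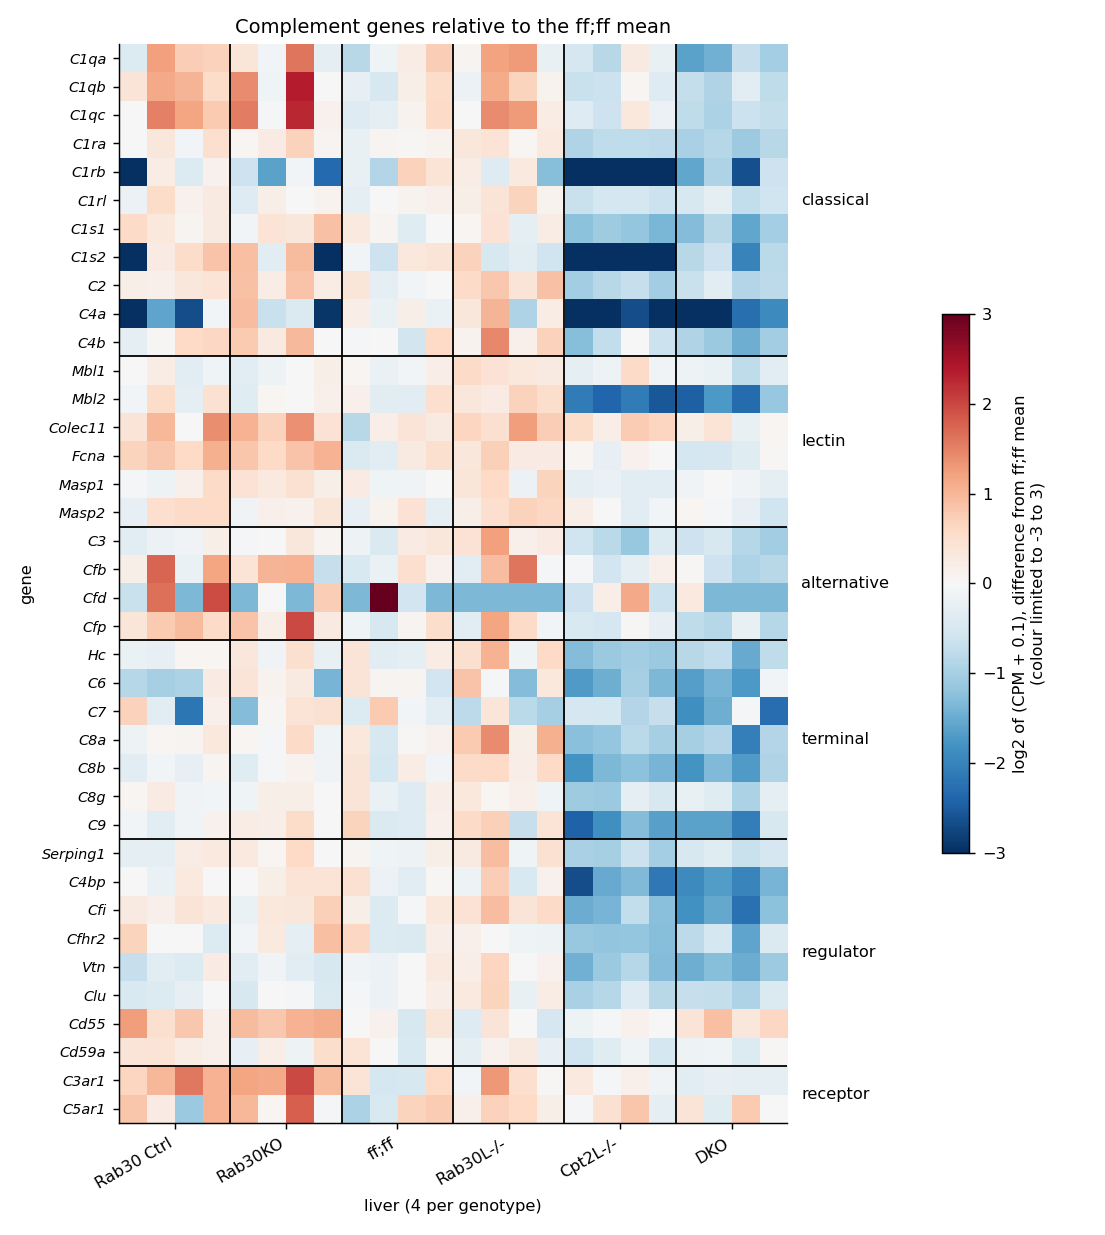
Level of each of the 38 genes (vertical axis, grouped by pathway) in each of the 24 livers (horizontal axis, 4 per genotype) as the log2 of CPM + 0.1, less the mean of the 4 floxed controls; blue is lower, red is higher, and the colours stop at -3 and 3. The 8 livers without Cpt2 on the right are blue for most classical, terminal and soluble regulator genes, while the lectin genes other than Mbl2 are near white.

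**Figure D2:**
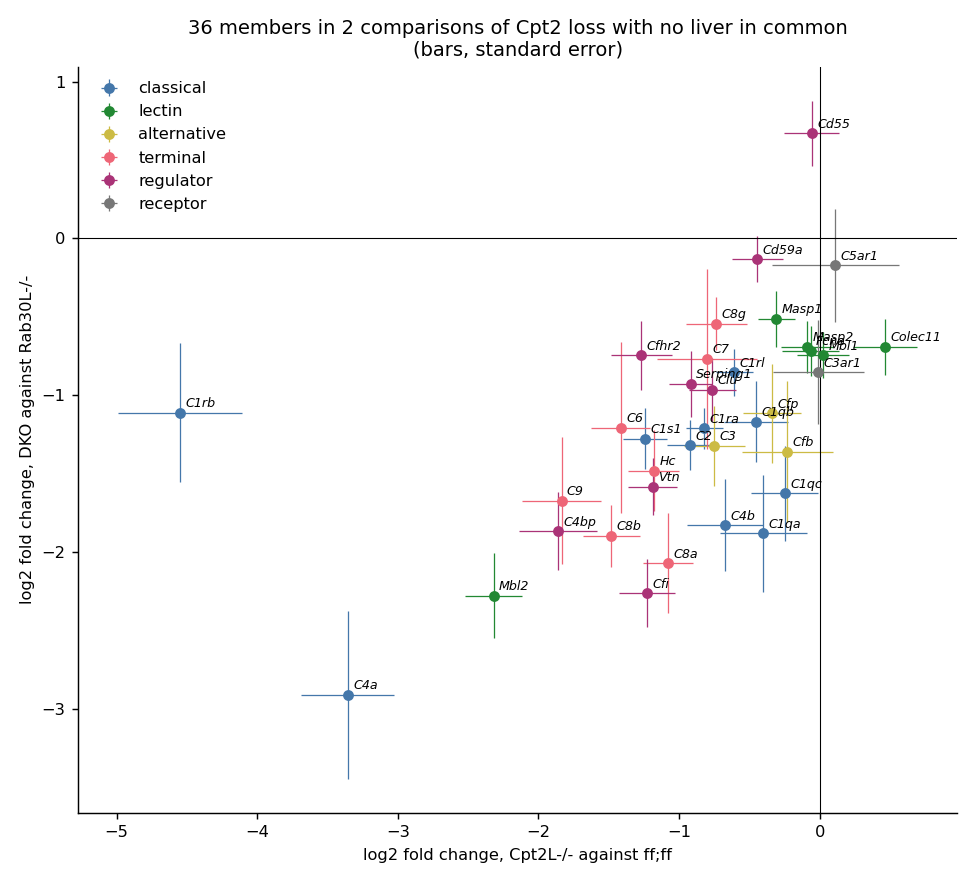
Log2 fold change of 36 members in Cpt2L-/- against floxed controls (horizontal axis) and in DKO against Rab30L-/- (vertical axis), each with its standard error; colours give the pathway, and C1s2, with no counts in 3 of the 4 Cpt2L-/- livers, is not drawn. Most genes lie below and to the left of 0, and Cd55 is the only gene drawn above 0 on the vertical axis.

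The terminal pathway, which builds the membrane attack pore, had 6 of its 7 genes lower in Cpt2L-/- against floxed controls. In DKO against Rab30L-/- 5 of 7 were lower. C9, whose copies form the wall of the pore, stood at 627, 292, 299.6 and 435 CPM in the floxed controls and at 73.3, 109, 158 and 127 CPM in Cpt2L-/-. No Cpt2L-/- liver reached the lowest control. The log2 fold change was -1.84 ± 0.28 (adjusted p = 0.00052), with its standard error. In Rab30L-/- it was at 589.5, 649, 244 and 524 CPM and in DKO at 128, 129.9, 93.0 and 282 CPM, where 1 DKO liver lay above the lowest Rab30L-/- liver, and the log2 fold change was -1.67 ± 0.40 (adjusted p = 0.0142). With no filter on low counts its adjusted p was 0.0765. The C8 complex is made of 3 chains. The beta chain, C8b, fell from 243 ± 64.1 CPM to 88.0 ± 14.3 CPM (SD, n = 4), a log2 fold change of -1.48 ± 0.20 (adjusted p = 0.000175), and in the other pair from 335 ± 43.1 CPM to 90.2 ± 26.1 CPM, a change of -1.90 ± 0.20 (adjusted p = 8.19e-05). The alpha chain, C8a, stood at 639, 991, 414 and 775 CPM in Rab30L-/- and 186, 199, 89.0 and 199 CPM in DKO, with no overlap and a log2 fold change of -2.07 ± 0.32 (adjusted p = 0.00119); between Cpt2L-/- and floxed controls it was -1.08 ± 0.18 (adjusted p = 0.000733). The gamma chain, C8g, a small lipocalin, changed least of the 3, by -0.74 ± 0.22 (adjusted p = 0.0253) and -0.54 ± 0.17 (adjusted p = 0.0304), and each of these calls was lost when any of 4 of the 8 livers (floxed control replicates 1 and 4, Cpt2L-/- replicates 1 and 2) or any of 5 of the 8 (Rab30L-/- replicates 1, 2 and 3, DKO replicates 2 and 3) was left out, with adjusted p of 0.0656 to 0.0777 and 0.051 to 0.0743. C8a and C8b lie beside each other on chromosome 4, 3.09 and 3.14 Mb from the floxed gene Cpt2. Within 5 Mb of Cpt2, 6 of 55 genes tested, C8a and C8b among them, were lower and 10 higher in Cpt2L-/-, where 1579 and 1576 of all 13270 genes were, and the part of linkage in the C8 result was not tested.

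Hc, which encodes C5, the source of the C5a peptide and of the first piece of the pore, stood at 1053, 638, 671 and 938 CPM in the floxed controls and 329, 372, 392 and 375 CPM in Cpt2L-/-, with no overlap (log2 fold change -1.18 ± 0.18, adjusted p = 0.000452). It was -1.48 ± 0.26 (adjusted p = 0.00169) in DKO against Rab30L-/-. C6 was lower in Cpt2L-/-, at 59.8, 71.1, 97.8 and 77.0 CPM against 258, 209, 208 and 131 CPM (log2 fold change -1.41 ± 0.21, adjusted p = 0.00034). In DKO, 3 livers were at 59.6 to 74.1 CPM and 1 at 184 CPM, within the Rab30L-/- range, and C6 did not pass there (log2 fold change -1.21 ± 0.54, adjusted p = 0.135). It passed without Rab30L-/- replicate 3 or without DKO replicate 4 (adjusted p of 0.033 to 0.0429). C7 was at 0.281 to 3.13 CPM over the 24 livers and passed in neither (log2 fold changes -0.80 ± 0.36, adjusted p = 0.125 and -0.77 ± 0.57, adjusted p = 0.336).

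**Figure D3:**
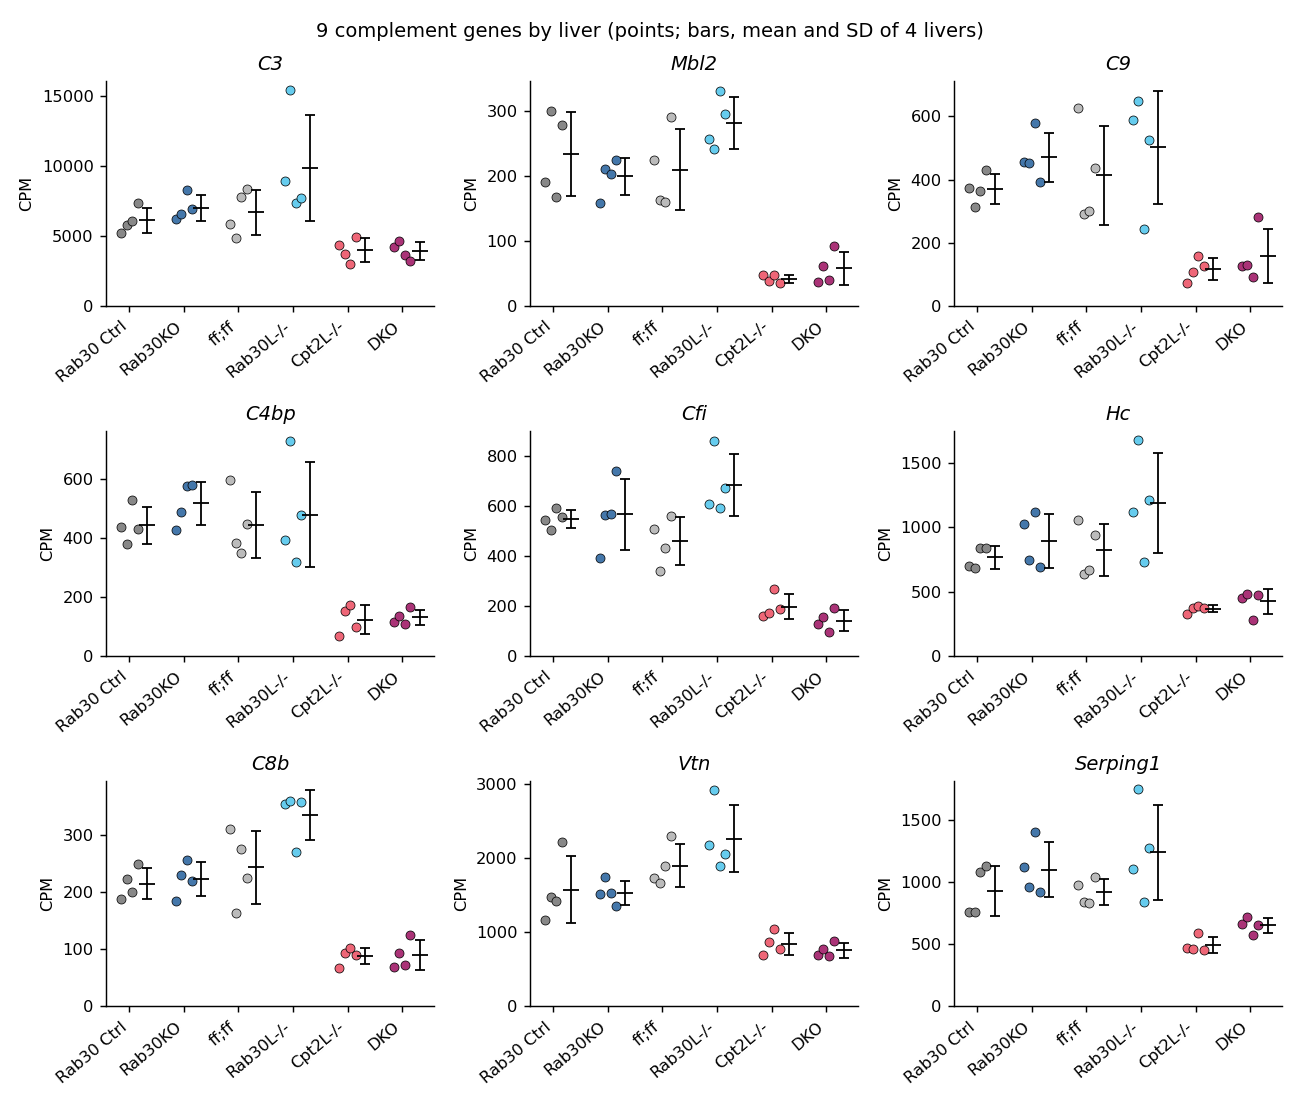
CPM (vertical axes, from 0) of C3, Mbl2, C9, C4bp, Cfi, Hc, C8b, Vtn and Serping1 in the 6 genotypes (horizontal axes); each point is 1 liver and the bars are the mean and SD of 4 livers. For Mbl2, C4bp, Cfi, C8b and Vtn each Cpt2L-/- and DKO liver lies below each liver of the other 4 groups, and C3 has 1 Rab30L-/- liver far above the rest.

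Of the 8 regulators 6 were lower in each comparison, and these 6 are the soluble ones. C4bp, the chain of the C4b-binding protein, which speeds the decay of the classical convertase, stood at 599, 383, 349 and 447 CPM in the floxed controls and 68.4, 153, 174 and 98.8 CPM in Cpt2L-/-. It stood at 392, 729.6, 319 and 477 CPM in Rab30L-/- and 115, 135, 109.9 and 167 CPM in DKO. Neither pair overlapped, and the log2 fold changes were -1.86 ± 0.28 (adjusted p = 0.000435) and -1.87 ± 0.25 (adjusted p = 0.000369). Cfi, factor I, the protease that cuts C3b and C4b, was at 610.4, 862, 593 and 671 CPM in Rab30L-/- and 129, 156, 95.8 and 191 CPM in DKO, a log2 fold change of -2.26 ± 0.22 (adjusted p = 5.07e-05), the largest fall of a regulator in that comparison. In Cpt2L-/- against floxed controls Cfi changed by -1.23 ± 0.20 (adjusted p = 0.000603). The difference between these 2 changes was -1.03 with an adjusted p of 0.0582, which does not pass the threshold.

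Vtn and Clu, which bind the forming pore and keep it out of membranes, are among the most abundant members and fell in both comparisons. Vtn stood at 1737, 1661, 1891 and 2303 CPM in the floxed controls and 689, 866, 1045 and 767 CPM in Cpt2L-/-, with log2 fold changes of -1.19 ± 0.17 (adjusted p = 0.00034) there and -1.58 ± 0.18 (adjusted p = 0.000126) in DKO against Rab30L-/-. Clu changed by -0.76 ± 0.17 (adjusted p = 0.00478) and -0.96 ± 0.20 (adjusted p = 0.00419). Serping1 went from 922 ± 105 CPM to 493 ± 64.5 CPM (SD, n = 4), a log2 fold change of -0.92 ± 0.15 (adjusted p = 0.000771), and from 1238 ± 379 CPM to 651 ± 58.2 CPM, a change of -0.93 ± 0.21 (adjusted p = 0.00671). Cfhr2 changed by -1.27 ± 0.22 (adjusted p = 0.00102) and -0.75 ± 0.22 (adjusted p = 0.0233), and the second call was lost without Rab30L-/- replicate 1, Rab30L-/- replicate 2 or DKO replicate 1 (adjusted p of 0.0511 to 0.0593). With all livers in the fit, neither membrane-anchored regulator was called lower. Cd55, the decay-accelerating factor, was the 1 member higher in DKO, at 12.3, 17.6, 12.0 and 14.7 CPM against 7.24, 12.4, 9.43 and 6.67 CPM in Rab30L-/-. The highest Rab30L-/- liver lay above 2 of the DKO livers, and the log2 fold change was 0.67 ± 0.21 (adjusted p = 0.0313). The call was lost when any of 5 livers was left out, Rab30L-/- replicates 1, 3 and 4 and DKO replicates 2 and 4 (adjusted p of 0.0546 to 0.0884). In Cpt2L-/- against floxed controls Cd55 was at -0.06 ± 0.20 (adjusted p = 0.871). Cd59a, which blocks C9 in the membrane, was at -0.44 ± 0.18 (adjusted p = 0.0956) and -0.13 ± 0.15 (adjusted p = 0.526), and it was called lower in the first without floxed control replicate 3 (adjusted p = 0.0177).

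Of the 6 lectin genes 1 was lower in Cpt2L-/- against floxed controls and 6 in DKO against Rab30L-/-. In DKO against floxed controls 1 was lower. All 6 had fitted changes above 0 in Rab30L-/- against floxed controls, with a median of 0.41, though none passed there. Mbl2, mannose-binding lectin C, at chr19:30232928-30239685, had the largest fall in Cpt2L-/- after C1s2, C1rb and C4a. It stood at 225, 163, 159.7 and 290.4 CPM in the floxed controls and 47.7, 39.2, 47.2 and 35.0 CPM in Cpt2L-/-. In Rab30L-/- it was at 256, 241, 331 and 295 CPM and in DKO at 37.1, 61.0, 40.7 and 92.9 CPM. No liver without Cpt2 reached the lowest liver with it, and the log2 fold changes were -2.32 ± 0.20 (adjusted p = 7.56e-06) and -2.28 ± 0.27 (adjusted p = 0.000244). Mbl1, mannose-binding lectin A, stood at 55.5, 61.4, 102 and 63.4 CPM in Cpt2L-/- and 71.6, 59.9, 64.4 and 78.6 CPM in the floxed controls, with a log2 fold change of 0.03 ± 0.18 (adjusted p = 0.937). Its coding sequence matches that of Mbl2 at 67.4% of bases and shares none of its stretches of 50 bases, so these 2 genes can be told apart by reads of that length. In DKO against Rab30L-/- Mbl1 changed by -0.74 ± 0.15 (adjusted p = 0.00336).

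The other lectin genes had the calls of Mbl1. Fcna (ficolin A), Masp1 and Masp2 (the proteases bound to the lectins) and Colec11 (collectin 11) did not pass in Cpt2L-/- against floxed controls, with log2 fold changes of -0.06, -0.31, -0.09 and 0.47, and were lower in DKO against Rab30L-/-, with -0.72, -0.51, -0.69 and -0.69 (adjusted p of 0.00639, 0.0486, 0.0089 and 0.0128). Colec11 was at 10.6, 21.8, 24.9 and 23.1 CPM in the floxed controls, 28.1, 22.0, 32.6 and 29.8 CPM in Cpt2L-/-, 29.9, 26.9, 45.5 and 32.2 CPM in Rab30L-/- and 21.5, 25.3, 16.4 and 19.96 CPM in DKO. The floxed controls hold the lowest liver and Rab30L-/- the highest. The call of Masp1 was lost without any of 7 of the 8 livers, Rab30L-/- replicate 3 being the exception (adjusted p of 0.0658 to 0.138), and that of Colec11 when the spread was estimated over all 24 livers (adjusted p = 0.0636). For Colec11 the difference between the 2 changes was -1.15 ± 0.31 (adjusted p = 0.0449), which passes, while 4.06% of all genes tested did. That call was lost when any of 10 of the 16 livers was left out, with adjusted p of 0.0504 to 0.0908. For Fcna, Masp1, Masp2 and Mbl1 the difference did not pass (adjusted p of 0.167, 0.633, 0.185 and 0.083), so being called in 1 comparison and not in the other is not shown to be a difference between them. Of 10 macrophage markers 7 were lower and 1 higher in DKO against Rab30L-/-, and their part in these lectin results was not tested.

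Of the 3 alternative pathway genes tested 1 was lower in Cpt2L-/- against floxed controls and 3 in DKO against Rab30L-/-. C3 was at 5861, 4866, 7759 and 8325 CPM in the floxed controls and 4344, 3738, 3003 and 4956 CPM in Cpt2L-/-. These overlap by 1 liver, and the log2 fold change of -0.75 ± 0.22 (adjusted p = 0.024) lost its call without floxed control replicate 4, Cpt2L-/- replicate 2 or Cpt2L-/- replicate 3 (adjusted p of 0.0641 to 0.0725). In Rab30L-/- it was at 8904, 15442, 7339.6 and 7745 CPM and in DKO at 4237, 4682, 3639 and 3191 CPM, with no overlap and a log2 fold change of -1.32 ± 0.25 (adjusted p = 0.00267). Rab30L-/- replicate 2, the highest here, was also the highest of its group for C4b, C8a, Hc, Serping1, C4bp, Cfi, Vtn and Clu. Without it 25 members were lower in DKO in place of 29, and the leave-one-out range of the C3 change was -1.45 to -1.02. Cfb (factor B, the protease of the alternative convertase) and Cfp (properdin, which stabilises it) did not pass in Cpt2L-/-, with -0.23 ± 0.32 (adjusted p = 0.654) and -0.34 ± 0.21 (adjusted p = 0.265). They were lower in DKO against Rab30L-/-, with -1.36 ± 0.45 (adjusted p = 0.0392) and -1.11 ± 0.32 (adjusted p = 0.0249), although each pair of groups overlapped. The call of Cfb was lost when any of 5 livers was left out, Rab30L-/- replicates 2 and 3 and DKO replicates 2, 3 and 4 (adjusted p of 0.0814 to 0.157), and that of Cfp when any of 4 was, Rab30L-/- replicate 3 and DKO replicates 1, 2 and 4 (adjusted p of 0.0545 to 0.0691) or with no filter on low counts (adjusted p = 0.0948). Of 10 macrophage markers 7 were lower in this comparison too, and Rab30L-/- replicate 2 had the highest Cfp of its group, at 41.9 CPM, and the highest marker sum, at 719 CPM. The part of macrophage content in the Cfp result was not tested. Cfd was at 0 in 4 of 4 Rab30L-/- livers and no higher than 2.30 CPM anywhere, and no fold change is given for it.

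The classical pathway begins with C1q and the proteases C1r and C1s, of which the mouse has paired genes on chromosome 6. Of its 11 genes 7 were lower in Cpt2L-/- against floxed controls and 9 in DKO against Rab30L-/-. C1s1 fell from 394, 342, 252 and 323 CPM in the floxed controls to 137, 154, 144 and 124 CPM in Cpt2L-/-, and from 335, 437, 264 and 376 CPM in Rab30L-/- to 131, 181, 111 and 159.8 CPM in DKO. Neither pair overlapped, and the log2 fold changes were -1.24 ± 0.16 (adjusted p = 0.000116) and -1.28 ± 0.19 (adjusted p = 0.000719), a difference of -0.03. C1ra changed by -0.82 ± 0.13 (adjusted p = 0.000552) and -1.21 ± 0.13 (adjusted p = 8.96e-05), and C1rl, a C1r-like protease, by -0.61 ± 0.13 (adjusted p = 0.0048) and -0.85 ± 0.15 (adjusted p = 0.00154). C2, the protease of the classical convertase, changed by -0.92 ± 0.16 (adjusted p = 0.00109) and -1.32 ± 0.16 (adjusted p = 0.000168).

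The scaffold of that convertase, C4, is encoded by 2 neighbouring genes of the major histocompatibility region on chromosome 17. C4b, at chr17:34728380-34743882, is the complement component proper, and C4a, at chr17:34809092-34823464, is the sex-limited protein gene, listed in the table as a processed transcript. C4a stood at 100.4, 76.7, 99.6 and 76.9 CPM in the floxed controls and 3.71, 6.67, 13.8 and 10.7 CPM in Cpt2L-/-. It stood at 111, 177, 46.0 and 102 CPM in Rab30L-/- and 6.14, 10.4, 18.1 and 23.2 CPM in DKO. The fall was the largest among the 18 members called in both, at -3.36 ± 0.33 (adjusted p = 4.18e-05) and -2.91 ± 0.54 (adjusted p = 0.00595) on the log2 scale. C4a was also uneven in the other colony, at 6.95, 29.1, 13.8 and 82.5 CPM in Rab30 Ctrl and 167, 55.5, 64.9 and 11.4 CPM in Rab30KO, so that some wild-type livers lay as low as Cpt2L-/- livers. C4b was at 1045, 1079, 741 and 1651 CPM in the floxed controls and 445, 653, 1072 and 691 CPM in Cpt2L-/-, which did not pass (log2 fold change -0.67 ± 0.27, adjusted p = 0.0956) unless floxed control replicate 3 or Cpt2L-/- replicate 3 was left out (adjusted p of 0.0295 to 0.0333), and fell from 1168, 2961, 1212 and 1763 CPM to 583, 498, 395 and 525 CPM in DKO against Rab30L-/- (log2 fold change -1.83 ± 0.29, adjusted p = 0.00116). The 2 genes are close copies, and how reads shared between them were counted is not given in the sources used here.

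C1s2 and C1rb, the second copies of C1s and C1r, were nearly absent from the Cpt2L-/- livers. C1s2, at chr6:124624625-124636085, had counts of 0, 0, 2 and 0 in the 4 Cpt2L-/- livers, which is 0, 0, 0.129 and 0 CPM. It stood at 9.69, 6.61, 12.7 and 13.3 CPM in the floxed controls, 16.4, 7.33, 8.001 and 6.67 CPM in Rab30L-/- and 5.65, 6.64, 2.47 and 5.76 CPM in DKO. Against a floor of 3 counts per library, C1s2 was at least 55.6-fold lower in Cpt2L-/- than in floxed controls (adjusted p = 1.63e-06) and at least 26.9-fold higher in DKO than in Cpt2L-/- (adjusted p = 0.000193). C1rb, at chr6:124570294-124581171, went the same way: it was at 5.67, 3.54, 10.8 and 8.75 CPM in the floxed controls, 0.256, 0.252, 0.517 and 0.187 CPM in Cpt2L-/-, 7.77, 5.03, 8.08 and 2.65 CPM in Rab30L-/- and 2.16, 3.42, 0.975 and 4.26 CPM in DKO. Its log2 fold change was -4.55 ± 0.44 (adjusted p = 1.58e-05) in Cpt2L-/- against floxed controls and 3.15 ± 0.50 (adjusted p = 0.0107) in DKO against Cpt2L-/-, which did not pass without Cpt2L-/- replicate 4 (adjusted p = 0.0614). Both genes passed in the interaction, the change from Cpt2L-/- to DKO less the change from floxed controls to Rab30L-/- (adjusted p of 5.29e-05 for C1s2 and 0.0107 for C1rb). With the spread estimated over all 24 livers neither passed in the interaction or in DKO against Cpt2L-/-, with adjusted p of 0.054 to 0.0603 for C1s2 and 0.0527 to 0.0574 for C1rb.

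Near-absence of C1s2 was not confined to Cpt2L-/-. Rab30 Ctrl livers were at 0, 12.1, 15.1 and 18.5 CPM and Rab30KO livers at 19.2, 8.11, 19.9 and 0.129 CPM. Thus Rab30 Ctrl replicate 1 and Rab30KO replicate 4 lay as low as Cpt2L-/- livers, with gaps of 122-fold and 35.8-fold to the next liver of their own group (after 0.1 CPM was added). C1rb was lowest in the same wild-type liver, at 0.463 CPM, and lowest in the same Rab30KO liver, at 1.23 CPM. A wild-type liver therefore shows the pattern of Cpt2L-/- at this pair of genes. The same Rab30 Ctrl and Rab30KO livers were also the lowest of their groups for C4a on chromosome 17, at 6.95 and 11.4 CPM. Within 1 Mb of C1s2, 13 of 44 genes tested were lower and 5 higher in Cpt2L-/- against floxed controls, where 11.9% of all genes were lower, and C1ra, C1rb, C1rl and C1s1 are among the 13. In DKO against Rab30L-/- 12 of 45 were lower, where 15.8% of all genes were. In DKO against floxed controls 11 of 46 were lower, where 8.24% of all genes were. Each DKO, Rab30L-/- and floxed control liver had C1s2 counts. C1ra, C1rl and C1s1, which all lie on the same side of the pair, had counts in each liver. Whether the sequence of this interval differs between colonies was not tested.

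How far reads can tell these copies apart is shown by their coding sequence. C1s1 and C1s2 match at 95.7% of coding bases and 92.9% of residues, and 30.1% of the 50-base stretches of either occur in the other. C1ra and C1rb match at 98.0% of bases and 96.2% of residues, and 59.7% of the stretches of C1ra occur in C1rb. The 60 coding bases with the most differences, chosen for that, are printed for each pair from the annotated transcripts of GRCm38, with differing bases in capitals (17 for the C1s pair at coding bases 1484 to 1543, and 11 for the C1r pair).
C1s1: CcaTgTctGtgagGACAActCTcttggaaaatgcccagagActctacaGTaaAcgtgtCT
C1s2: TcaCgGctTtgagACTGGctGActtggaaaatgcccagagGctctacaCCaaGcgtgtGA
C1ra: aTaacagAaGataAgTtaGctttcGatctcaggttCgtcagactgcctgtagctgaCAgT
C1rb: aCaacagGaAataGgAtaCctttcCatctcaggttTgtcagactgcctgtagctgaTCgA
C1s1 stood at 124 CPM or more in each Cpt2L-/- liver in which C1s2 had at most 2 counts. For C1rb, whose few reads could come from C1ra, the values below 1 CPM are uncertain.

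**Figure D4:**
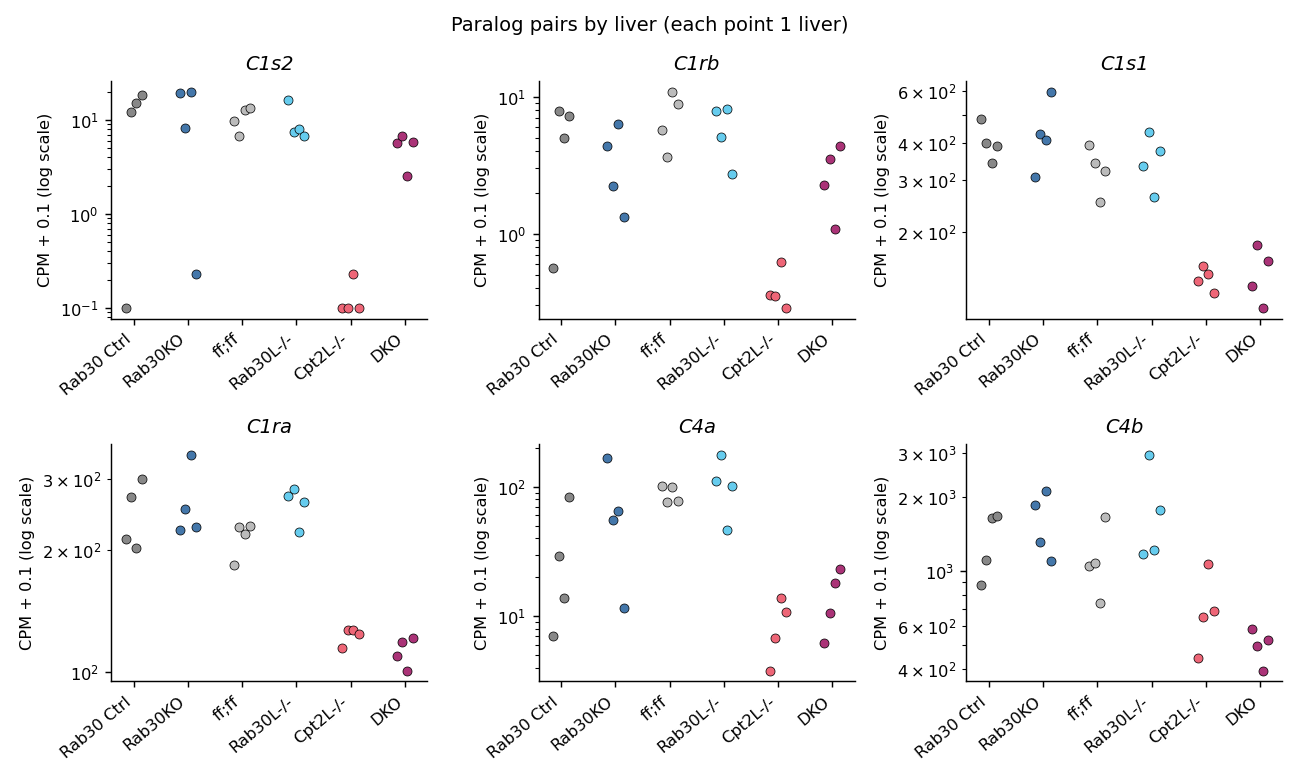
CPM + 0.1 (vertical axes, log scale) of C1s2, C1rb, C1s1, C1ra, C4a and C4b in the 6 genotypes (horizontal axes), each point 1 liver. C1s2 lies at the bottom in the 4 Cpt2L-/- livers, 1 Rab30 Ctrl liver and 1 Rab30KO liver, while C1s1 has its lowest value of the 24 livers at 111 CPM.

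The 3 chains of C1q, which macrophages make, did not pass in Cpt2L-/- against floxed controls and were lower in DKO against Rab30L-/-. C1qa was at 11.9, 19.5, 25.0 and 35.8 CPM in the floxed controls and 14.9, 11.9, 25.7 and 18.2 CPM in Cpt2L-/- (log2 fold change -0.40 ± 0.31, adjusted p = 0.392), and at 22.5, 49.5, 51.9 and 18.2 CPM in Rab30L-/- and 6.97, 7.80, 13.2 and 10.5 CPM in DKO (log2 fold change -1.88 ± 0.37, adjusted p = 0.00585). C1qb changed by -1.17 ± 0.26 (adjusted p = 0.0075) and C1qc by -1.62 ± 0.30 (adjusted p = 0.00373) in the latter. For none of the 3 did the difference between the 2 comparisons pass (adjusted p of 0.125, 0.28 and 0.0709). Macrophage markers moved alongside. Of 10 Kupffer cell and macrophage markers, 3 were lower and 1 higher in Cpt2L-/- against floxed controls, and 7 lower and 1 higher in DKO against Rab30L-/-, and none was at 0 throughout a group. The marker that rose in each was Cd68, a lysosomal protein, with log2 fold changes of 2.60 ± 0.22 (adjusted p = 6.23e-06) and 2.44 ± 0.37 (adjusted p = 0.00151). The summed level of the other 9 was 211 to 369 CPM in the floxed controls, 157 to 214 in Cpt2L-/-, 256 to 709 in Rab30L-/- and 157 to 197 in DKO. Summed C1q over these 9 markers was 0.186 to 0.285, 0.241 to 0.366, 0.227 to 0.358 and 0.181 to 0.240 in the same order. The ranges of this ratio overlap in each pair, for DKO and Rab30L-/- only through DKO replicate 3, at 0.240. The ratio leaves out Cd68, which rose. With Cd68 counted, the marker sums were 215 to 377, 198 to 263, 261 to 719 and 185 to 257 CPM in the same order. The part of macrophage content in the C1q result was not tested. Without the 3 C1q genes 26 of 34 members were lower in DKO against Rab30L-/-, and 21 of 34 in Cpt2L-/- against floxed controls.

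**Figure D5:**
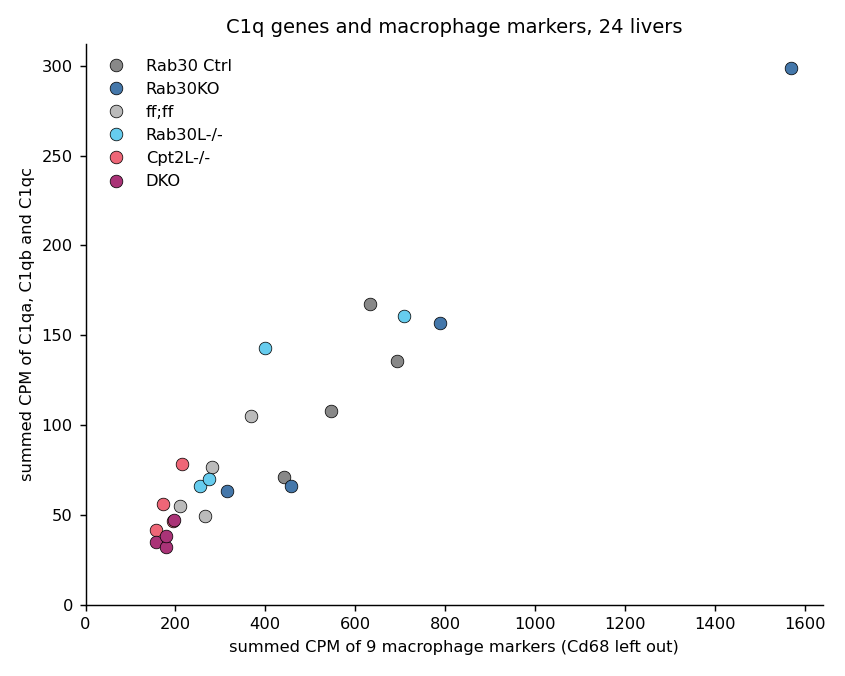
Summed CPM of C1qa, C1qb and C1qc (vertical axis) against the summed CPM of 9 macrophage markers without Cd68 (horizontal axis) in 24 livers, coloured by genotype. The livers without Cpt2 lie at the lower left, and 1 Rab30KO liver, with a C1q sum of 299 CPM and a marker sum of 1569 CPM, lies far from the rest.

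The receptors for C3a and C5a, C3ar1 and C5ar1, were at 1.48 to 8.80 CPM and 0.379 to 3.46 CPM over the 24 livers and passed in neither comparison of Cpt2 loss, with log2 fold changes of -0.85 ± 0.33 (adjusted p = 0.0717) and -0.17 ± 0.36 (adjusted p = 0.752) in DKO against Rab30L-/-. C3ar1 was called lower there without Rab30L-/- replicate 1 (adjusted p = 0.0413).

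DKO livers were also set against the floxed controls, their littermates. Here 22 of 37 members were lower, where 8.24% of all genes were, and 0 were higher, and the groups are the ones of the comparisons above in a new pairing rather than new livers. C4bp changed by -1.76 ± 0.20 (adjusted p = 0.000174), Vtn by -1.34 ± 0.17 (adjusted p = 0.000383), Cfi by -1.69 ± 0.22 (adjusted p = 0.000439), Mbl2 by -1.86 ± 0.30 (adjusted p = 0.00217) and C4a by -2.61 ± 0.35 (adjusted p = 0.000923). The 11 classical genes were all lower, from C1rl at -0.53 to C4a, and of the lectin genes Mbl2 alone passed. In the same comparison 4 of 10 macrophage markers were lower and 1 higher, and 4 of 7 hepatocyte markers were lower. The part of these cells in the result was not tested. The calls of C1qa, C1qb, C1qc, C1rb, C1rl, C1s2, C2, C3, C9 and Serping1 in this comparison were each lost without any of 3 to 7 of the 8 livers. The count was 12 without DKO replicate 1 and 13 without floxed control replicate 4. With the spread estimated over all 24 livers the calls of C1qa, C1qb, C1qc, C1rb, C1s2 and Serping1 were lost. With no filter on low counts those of C1rb, C9 and Serping1 were, and that of C1rb also with DESeq2 size factors.

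With loss of Rab30 alone no complement gene passed in the edgeR fit on each comparison's 8 livers. In Rab30L-/- against floxed controls 0 of 37 members passed by edgeR, where 0.479% of all genes did. An unadjusted p under 0.05 was reached by 8 members and by 1496 of the 13367 genes tested. DESeq2's Wald test called 2 members, C8a and C2, and 309 of 15887 genes, and the same 2 members were called by edgeR with no filter on low counts. The fitted log2 fold changes were above 0 for 31 members, with a median of 0.39 against 0.0022 over all genes. Of the 10 macrophage markers 9 had fitted changes above 0, with a median of 0.69, and the marker sum of Rab30L-/- replicate 2 was 719 CPM, where the other 3 livers had 261 to 409 CPM. Their part in these values was not tested. The largest change belonged to C8a, at 0.91 ± 0.26 (adjusted p = 0.194), with 639, 991, 414 and 775 CPM in Rab30L-/- and 458, 265, 377 and 402 CPM in the floxed controls, and the groups overlap. C2 stood at 59.7, 69.6, 51.9 and 73.0 CPM in Rab30L-/- and 51.0, 33.1, 37.7 and 39.4 CPM in the floxed controls, with a log2 fold change of 0.65 ± 0.17 (adjusted p = 0.152). For Mbl1, Cfi and Colec11 it was 0.39 ± 0.14 (adjusted p = 0.293), 0.57 ± 0.19 (adjusted p = 0.29) and 0.73 ± 0.25 (adjusted p = 0.295). None of the 4 passed. In Rab30KO against Rab30 Ctrl 0 members passed by edgeR or DESeq2, 0 had an unadjusted p under 0.05, and 0.022% of all genes passed. The fitted log2 fold changes ran from -0.56 for C1rb to 1.17 for C4a, both of which vary widely within these groups.

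In DKO against Cpt2L-/-, which adds the loss of Rab30 to that of Cpt2, 2 of 37 members passed where 2.71% of all genes did, and these were C1s2 and C1rb, described above. The median over members was 0.04. C3, C4bp, C8b and Vtn had log2 fold changes of -0.02, 0.10, 0.04 and -0.15, with standard errors of 0.18, 0.26, 0.19 and 0.15. Cd55 and C1qa came nearest to passing, at 0.61 ± 0.16 (adjusted p = 0.0622) and -0.86 ± 0.25 (adjusted p = 0.0908), and both were called by the Wald test, with Serping1. A p above the threshold does not show that these levels are alike.

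A further 18 genes of the pathway were looked at, among them the carboxypeptidase N chains that inactivate C3a and C5a, and the integrin chains of the complement receptors on leukocytes. Of these, 13 were tested in each comparison of Cpt2 loss, and 6 were lower and 0 higher in each, beside 11.9% of all genes lower in Cpt2L-/- against floxed controls and 15.8% in DKO against Rab30L-/-. Among those lower in both were Susd4, a membrane protein that restrains C1, with log2 fold changes of -2.16 ± 0.19 (adjusted p = 8.39e-06) and -1.35 ± 0.42 (adjusted p = 0.0406), and Cpn2, the carrier chain of carboxypeptidase N, with -1.25 ± 0.17 (adjusted p = 0.000166) and -1.63 ± 0.18 (adjusted p = 0.000111). Susd4 was also the 1 gene of the 18 called in DKO against Cpt2L-/-, where it was higher, at 0.96 ± 0.22 (adjusted p = 0.0438). Cpn1, the catalytic chain, stood at 152, 194, 215 and 203 CPM in the floxed controls and 217, 190.0, 219.7 and 232 CPM in Cpt2L-/- and passed in neither (log2 fold changes 0.16 ± 0.14, adjusted p = 0.476 and -0.29 ± 0.12, adjusted p = 0.0755). Colec10, the partner of Colec11, was lower in Cpt2L-/- at -0.77 ± 0.16 (adjusted p = 0.0033) and did not pass in DKO against Rab30L-/-, at -0.24 ± 0.14 (adjusted p = 0.231). Vsig4, a complement receptor of Kupffer cells, was at -0.65 ± 0.20 (adjusted p = 0.0334) and -0.76 ± 0.30 (adjusted p = 0.086).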

How the data were processed

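RNA of 24 fasted livers was sequenced by Novogene. Per the labels' processing notes, reads were aligned with HISAT2 to GRCm38 (mm10), and the authors deposited raw read counts per gene for each liver. The program that counted the reads and its strand setting are not given in the sources used here, so reads of near-identical or overlapping genes may be split between them. The FPKM values are as deposited by the authors, from the same counts and the listed gene lengths with denominators of 0.851 to 1.14 times the library totals, and were used only to compare genes with each other. Deposited tables of the authors' own fold changes and p-values, and a table of normalised counts, were not used. Some further pathway genes are not reported here. Rows that name no gene numbered 0.

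The members and all gene lists were chosen with earlier results of these data known. Each comparison was fitted on its own 8 livers (the interaction on 16) with edgeR 4.0.16 in R 4.3.3: filterByExpr with a minimum count of 10, TMM scaling, a robust quasi-likelihood fit and test, and Benjamini-Hochberg adjustment over all genes tested. A gene was called at an adjusted p under 0.05 and at least 1.2-fold (adjusted p alone in the interaction). CPM used TMM factors over the 24 livers. A fold against livers at 0 used a floor of 3 counts per library, which covers counting error only. Genes treated in full were those called in both comparisons of Cpt2 loss, in a Rab30 comparison or in the interaction, the C1q genes, and those with a gap of 10-fold or more within a group. Marker lists covered hepatocytes, macrophages, stellate cells, sinusoidal endothelium, bile duct, and neutrophils with T cells. The alternatives were DESeq2 size factors, the DESeq2 1.42.0 Wald test, no filter on low counts, a fit over all 24 livers, and each liver left out in turn. The code was tested on simulated counts. Each liver is labelled as a separate animal. Tables and sequences were handled with Python 3.11.15, pandas 2.3.3 and Biopython 1.88, and plots with matplotlib 3.10.9.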

Additional observations from a re-analysis of the deposited data

Results flagged for a closer look

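Among the 25 genes treated in full, 150 groups of 4 livers were searched for a liver far from the other 3 by Dixon's ratio, and 8 had one, where chance gives about 1 in 20. In 2 of the 8 the other 3 livers were all at 0, so that any count gives the highest ratio and the chance rate does not apply. C1s2 stood at 16.4 CPM in Rab30L-/- replicate 1, where the others were at 6.67 to 8.001 CPM, and at 0.129 CPM in Cpt2L-/- replicate 3, where the others were at 0. Cfd stood at 2.30 CPM in floxed control replicate 2, where the others were at 0 to 0.0696 CPM, and at 0.209 CPM in DKO replicate 1, where the others were at 0. DKO replicate 3 was low for Hc, at 282 CPM against 455 to 486 CPM, and for C8a, at 89.0 CPM against 186 to 199 CPM. C8b was low in Rab30L-/- replicate 3, at 270.2 CPM against 353 to 358 CPM. Serping1 was high in Cpt2L-/- replicate 3, at 589 CPM against 456 to 467 CPM.

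In 3 genes the change with loss of Rab30 differed between livers without and with Cpt2 by the test of that difference in edgeR, which 4.06% of all genes passed. It was -1.15 on the log2 scale for Colec11 (adjusted p = 0.0449), 7.17 for C1s2 (adjusted p = 5.29e-05) and 3.44 for C1rb (adjusted p = 0.0107). The value for C1s2 is a fitted one against livers at or near 0 and bounds nothing. With the spread estimated over all 24 livers the adjusted p were 0.106, 0.0603 and 0.0574, so all 3 calls were lost, and that of Colec11 was lost when any of 10 of the 16 livers was left out.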

How the results depend on the processing

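The 21 members lower in Cpt2L-/- against floxed controls numbered 21 under each of the 4 alternatives and 19 to 23 with single livers left out. The 30 called in DKO against Rab30L-/- numbered 28 to 32 and, with livers left out, 25 to 29. In DKO against floxed controls 22 became 17 to 25 and, with livers left out, 12 to 21. In Rab30L-/- against floxed controls 0 became 2 (C8a and C2, both higher) under the DESeq2 Wald test and 2 with no filter, and stayed at 0 with each liver left out. In DKO against Cpt2L-/- 2 became 5 under the Wald test, 5 with no filter and 0 over all 24 livers, and was 1 (without Cpt2L-/- replicate 4) to 5 (without DKO replicate 3) with livers left out. The interaction's 3 became 6 under the Wald test (with Cfi, C1qa and C1qc lower) and 0 over all 24 livers, and 2 to 5 with livers left out, 5 without floxed control replicate 4. Rab30KO against Rab30 Ctrl gave 0 throughout. The causes were not tested. Signs were followed for each tested member in both comparisons of Cpt2 loss, and elsewhere for called genes alone. Among these they turned only for uncalled genes near 0. In Cpt2L-/- against floxed controls the ranges with livers left out were -0.20 to 0.12 for Mbl1, -0.19 to 0.11 for Fcna, -0.19 to 0.079 for Masp2, -0.19 to 0.064 for Cd55, -0.17 to 0.22 for C3ar1 and -0.13 to 0.39 for C5ar1. C3ar1 was also 0.0087 with no filter and 0.00052 over all 24 livers. C5ar1 ran from -0.40 to 0.0037 in DKO against Rab30L-/-. Low counts limit C7, Cfb, Cfd, C1rb, C1s2 and the receptors. No paired analysis was possible because the livers carry animal numbers that no other group has in common.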

Other observations

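Markers of the remaining liver cells were summed in the same way. Taken over over 7 stellate cell markers, the level was 138 to 259.8 CPM in the floxed controls, 249 to 272 in Cpt2L-/-, 231 to 259 in Rab30L-/- and 249.5 to 295 in DKO. Over 6 sinusoidal endothelial markers it was 195 to 265, 196 to 226, 175 to 207 and 192 to 241 CPM in the same order. For both lists the ranges overlapped in each pair of groups with and without Cpt2. Over 5 bile duct markers it was 15.3 to 31.9, 9.56 to 24.0, 17.9 to 32.7 and 12.0 to 20.9 CPM. Over 5 neutrophil and T cell markers it ran from 0.609 to 11.2 CPM over the 24 livers, with Ly6g at 0 in each Rab30KO, Rab30L-/- and Cpt2L-/- liver.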
